A study of Mus musculus with 3 samples.

Results

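The Hippo pathway restrains the growth of tissues through a chain of protein kinases. The kinases encoded by Stk3 and Stk4 (MST2 and MST1) activate those encoded by Lats1 and Lats2, which phosphorylate the co-activators YAP (Yap1) and TAZ (Wwtr1) and keep them out of the nucleus. When the kinases are quiet, YAP and TAZ enter the nucleus and bind the Tead transcription factors (Tead1 to Tead4), which contact DNA. These 10 genes were followed here in a map of open chromatin from the mouse molar. A deposited window was counted for a gene when its midpoint lay inside the gene or within 10 kb of either end in the RefSeq annotation of GRCm38. This rule chose 13 of 13500 windows, and 9 of 5753 deposited sites of the Plagl1 motif lay in them.

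Dissociated cells from the root-forming end of first molars, taken from C57BL/6 mice at postnatal day 7.5, were used for ATAC-seq, an assay that marks open chromatin by where a transposase can cut. The genotype Gli1-CreER;Arid1a fl/fl (mutant) gave 1 library, and Arid1a fl/fl (control) gave 2. Tamoxifen, given at postnatal day 3.5 at 1.5 mg per 10 g body weight, is listed for all 3 libraries. Each library was made from 5000 cells. Cre acts in this model in cells in which the Gli1 promoter is active when tamoxifen is present, so cells outside that lineage keep Arid1a, a subunit of the SWI/SNF chromatin remodelling complex. The deposited tables pool the libraries into 1 list of windows, each reaching 100 bases to either side of a peak centre, with no read count per library. The mutant and the controls could therefore not be compared, the depth behind each window is unknown, no value below has a replicate error, and no test was made. A window marks where the Plagl1 motif was searched, and a site is a sequence match to the motif of Plagl1, a zinc finger transcription factor also called Zac1.

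The sites in the windows of these genes are shown with their bases, because they are the sequence readout of the deposited tables. Each has 10 bases, read 5′ to 3′ on the strand of the motif, with positions 4 to 7 in capitals.
Yap1, chr9:8004189-8004198, plus strand: tctGAGGcac
Tead1, chr7:112826344-112826353, minus strand: cagGAGGgcc
Tead1, chr7:112826446-112826455, plus strand: aggGAGGcct
Tead1, chr7:112826456-112826465, minus strand: gatGAGGccc
Lats1, chr10:7681361-7681370, plus strand: ctaGGGGccc
Stk4, chr2:164070844-164070853, plus strand: cggGAGGccc
Stk4, chr2:164071028-164071037, plus strand: tttGGGGgcc
Stk4, chr2:164074249-164074258, plus strand: tgaGGGGccg
Stk4, chr2:164074264-164074273, plus strand: tgaGAGGcaa
The second capital was A in 6 of these sites and G in 3, where A made up 44.8% of that position over all deposited sites. Coordinates here and below are in mm10, the assembly also named GRCm38, and count from 1.

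Open chromatin lay close to a gene end in 9 of the 10 genes, and Tead2 alone had no window within 10 kb. Over all 21887 protein-coding genes, 59.5% had at least 1 window by the same rule. The 10 genes spanned 17.7 kb (Tead2) to 280.4 kb (Stk3). All of them were longer than the median protein-coding gene (17.2 kb), and among protein-coding genes longer than that median the share was 70.4%. Within 1 kb of a gene end, again 9 of the 10 genes had a window, against 46.6% of protein-coding genes and 55.6% of those longer than the median. The closest windows of the 9 genes lay 50 to 417 bp from a gene end, with a median of 174 bp. The median over all protein-coding genes with a window within 1 kb of an end was 137 bp. RefSeq promoter entries gave the strand of 7 of the 10 genes, and for the 6 of them with such a window it lay at the end where the gene starts. That holds for 98% of protein-coding genes with a known strand and a window near an end, so it is the usual place.

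**Figure D1:**
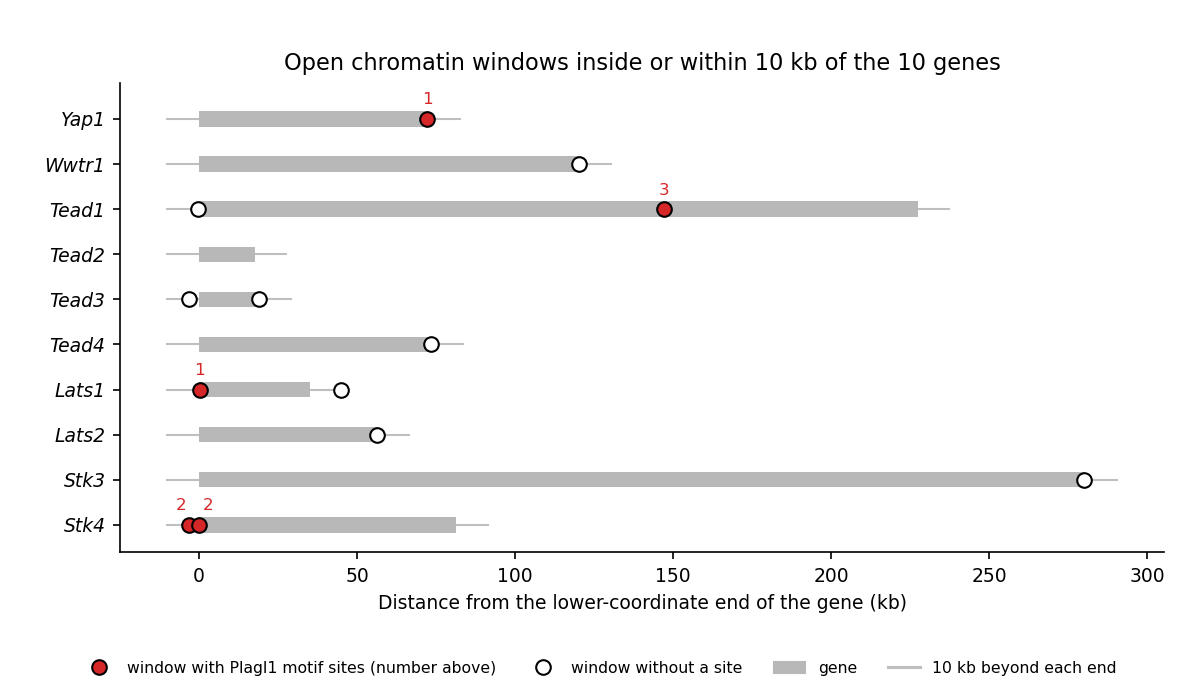
Windows of the 10 genes, drawn as circles at their distance in kb from the lower-coordinate end of each gene; grey bars are genes and grey lines the 10 kb beyond each end. Red circles are windows with Plagl1 motif sites, with the number of sites above, and most windows sit at 1 end of a gene, with Tead2 having none.

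The co-activators each had 1 window at their start. The Yap1 gene spans 72.6 kb on chromosome 9, and its window at chr9:8004121-8004321 lay inside the gene with the midpoint 375 bp downstream of the listed start. It held 1 Plagl1 site, with a score of 5.91. The score is HOMER's log-odds score, which ran from 5.51 to 7.74 over all sites, and 46.6% of them scored no higher than this one. The window of Wwtr1 lay just outside the gene, at chr3:57575860-57576060, with its midpoint 50 bp upstream of the first of 2 listed starts. It held no Plagl1 site. The windows of the pair were alike in GC content, 70.6% for Yap1 and 68.7% for Wwtr1, and differed more in CpG dinucleotides, with 11.5 per 100 steps between bases for Yap1 and 8 for Wwtr1.

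The 4 Tead genes, which encode the DNA-binding partners of YAP and TAZ, differed among themselves in where their windows lay. Tead1 had a window 381 bp outside its lower-coordinate end, at chr7:112678875-112679075, without a site and with a GC content of 64.2%. Its other window, at chr7:112826316-112826516, lay deep inside the gene, 80368 bp from the nearer end. That window held 3 Plagl1 sites with scores of 5.97, 5.90 and 6.44, and 1.5% of all windows held at least 3. No other window of the 10 genes lay so far inside a gene. A pair of its sites abutted with 0 bases between them, on opposite strands, so that their cores face each other in a run of 20 bases on the plus strand, chr7:112826446-112826465, with both cores in capitals.
Tead1 abutting sites: aggGAGGcctgggCCTCatc
A pair of sites without a gap occurred in 10 of the 13500 windows, of which 1055 held at least 2 sites and could show a pair. In 5 of the 10 the plus-strand site came first and the minus-strand site second, as at Tead1. The feature was noticed after the sites had been read.

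Tead3 and Tead4 had a window at an end and no Plagl1 site. The Tead4 window, at chr6:128300432-128300632, lay 281 bp inside the gene, with a GC content of 72.1% and 10 CpG per 100 steps. The Tead3 window, at chr17:28350651-28350851, lay 54 bp downstream of the first of 3 listed starts, with a GC content of 75.1% and likewise 10 CpG per 100 steps. It was also 764 bp from an end of Tulp1, which encodes a photoreceptor protein. A further window of Tead3 lay 3145 bp beyond its other end, but 55 bp inside Rpl10a, a gene for a protein of the large ribosomal subunit, and 1952 bp from Fance, a gene of DNA crosslink repair. Its GC content was 66.2%, with 12.5 CpG per 100 steps. Tead2 had its nearest window 11150 bp upstream of its start, just past the 10 kb limit, at chr7:45204542-45204742. That window is nearest to Kash5 and holds 2 sites. The window closest to the limit on the other side was one of Lats1, at 9562 bp.

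The LATS kinases, which phosphorylate YAP and TAZ, had the GC-richest windows of the 10 genes. The Lats1 window at chr10:7681258-7681458 had a GC content of 80.1%, which 95.9% of all windows did not exceed. It lay 149 bp downstream of the listed start and held 1 site with a score of 6.15. This window was shared with the neighbouring gene Pcmt1, a protein repair methyltransferase, whose end lay 21 bp from its midpoint. Another window counted for Lats1, 9562 bp beyond the gene, lay 33 bp inside Katna1, which encodes a microtubule-severing protein, and held no site, with a GC content of 69.2% and 12.5 CpG per 100 steps. The Lats2 window at chr14:57745910-57746110, 113 bp downstream of the upstream one of 2 listed starts, had a GC content of 77.6% and no site. Its 17 CpG per 100 steps were the most of any window of the 10 genes, and 97.4% of all windows had no more.

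The MST kinases at the top of the chain differed in their sites. Stk3, at 280.4 kb the longest of the 10 genes, had 1 window 174 bp inside an end, at chr15:35155608-35155808, and it held no site. That window had a GC content of 72.6% and 13 CpG per 100 steps. Stk4 had 2 windows with 2 sites each. The window at chr2:164074088-164074288, with its midpoint 50 bp downstream of the listed start, held sites with scores of 5.87 and 5.68, separated by 5 bases on the same strand. The window at chr2:164070837-164071037 lay 3176 bp outside Stk4, and 241 bp inside Tomm34, which encodes a cytosolic helper of mitochondrial protein import. Its sites scored 6.46 and 5.57. The GC content was 70.1% in the window at the start and 70.6% in the window at Tomm34, with 9 and 12 CpG per 100 steps in the same order. The 6.46 site was the highest-scoring of the 9, and its sequence occurred 37 times in the deposited list. At least 4 sites within 10 kb were found for 0.841% of protein-coding genes, but only 2 of the 4 sites of Stk4 lay within 1 kb of it.

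Plagl1 sites were thus found at 4 of the 10 genes, Yap1, Tead1, Lats1 and Stk4, where the share over protein-coding genes was 25.1% and over those longer than the median 28.6%. These shares also count genes without a window. Of the genes with a window, 4 of 9 held a site here, against 5483 of 13028 protein-coding genes. By window, 5 of 13 held a site (38.5%), against 32.9% of all windows, a share near the background. Within 10 kb, 1 member of each group of paralogues held all sites: Yap1 and not Wwtr1, Tead1 and not the other Tead genes, Lats1 and not Lats2, and Stk4 and not Stk3. This pattern was not among the planned comparisons, and Tead2 had no window in which a site could be found. It also depends on the limit, since within 50 kb Tead2 and Lats2 also had windows with sites. Promoter matches outside the windows, at Tead2 and Tead3 among others, are given below. The 9 scores had a median of 5.91, against 5.94 over all sites. The 2 highest, in Stk4 and Tead1, were above the upper quartile of 6.25, and 4 of the 9 were at or above the median of all sites.

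**Figure D2:**
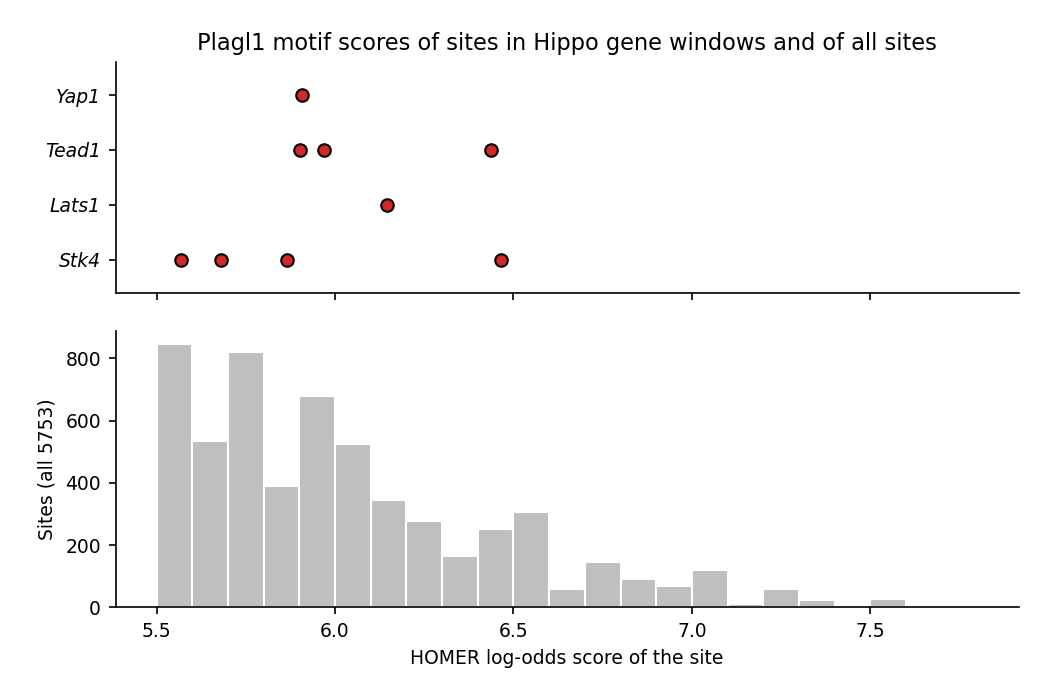
Upper panel, HOMER log-odds scores of the 9 Plagl1 sites, 1 point per site, by gene; lower panel, histogram of the scores of all 5753 sites in bins of 0.1. The 9 sites lie between 5.57 and 6.46, and none lies in the upper tail that reaches 7.74.

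The windows were mostly rich in GC and CpG. Their GC content ran from 51.2% to 80.1% with a median of 70.6%, against a median of 66.7% over all windows (quartiles 59.2% and 72.6%). For the 9 windows within 1 kb of an end of the 10 genes the median was 72.1%, against 68.2% for all windows within 1 kb of a protein-coding gene end. The number of CpG per 100 steps had a median of 11.5 over the 13 windows, against 9 over all windows. Over the 9 windows near ends of the 10 genes it was 10, and it was also 10 over all windows near protein-coding gene ends. The latter set counts ends of any protein-coding gene, so the sets follow unlike rules. By that rule the windows counted for Tead3, Lats1 and Stk4 at Rpl10a, Katna1 and Tomm34 would join the 9. They had a GC content of 66.2%, 69.2% and 70.6%, and 12.5, 12.5 and 12 CpG per 100 steps. The window deep inside Tead1 stood apart, with the lowest values of both measures: a GC content of 51.2% and 2 CpG per 100 steps, which 9.68% and 10.2% of all windows did not exceed. It was also the window with the most sites.

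**Figure D3:**
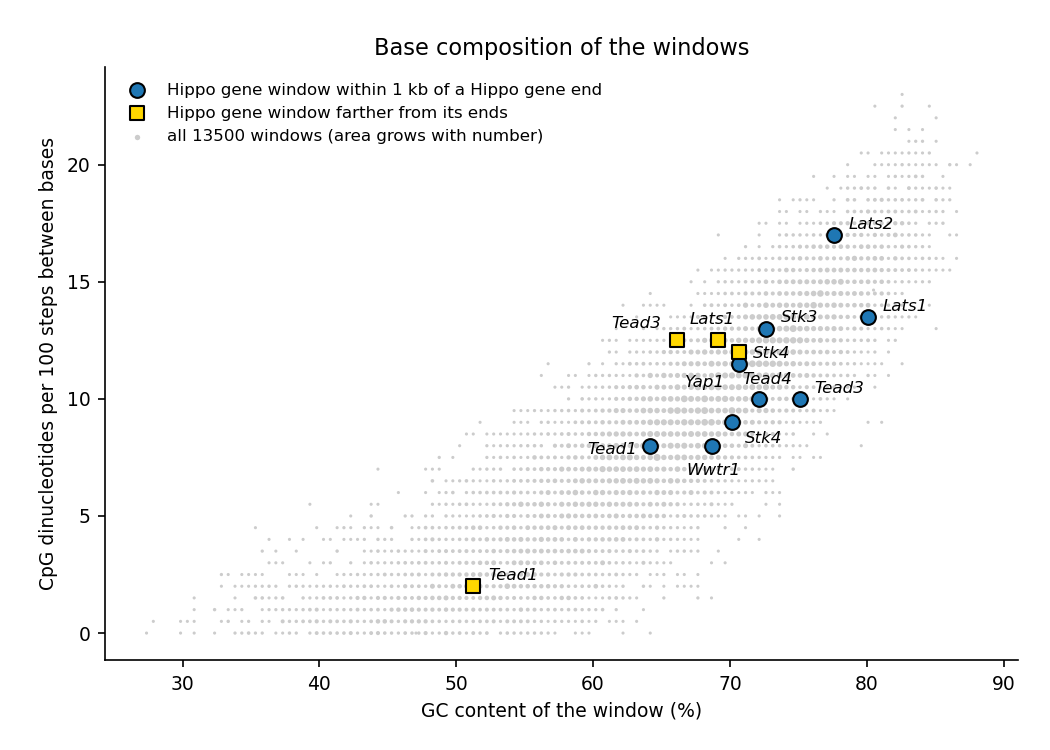
GC content in % on the x axis and CpG dinucleotides per 100 steps between bases on the y axis, for the 13 windows of the 10 genes and all 13500 windows (grey). Blue circles are windows within 1 kb of an end of the Hippo gene they were counted for, and yellow squares are windows farther from its ends. The window inside Tead1 sits at the lower left, at 51.2% GC, and the Lats1 and Lats2 windows at the upper right.

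Several windows lay near more than 1 gene. Of the 13 windows, 7 (53.8%) were also inside or within 10 kb of another protein-coding gene, where 40.1% of the windows assigned to any protein-coding gene were shared in this way. For 3 windows, those counted for Tead3, Lats1 and Stk4 at Rpl10a, Katna1 and Tomm34, the other gene was the nearest protein-coding gene. The other genes within 10 kb of a midpoint were Nup43, a nucleoporin gene 2472 bp from the Lats1 window, Gm52140, inside which the Lats2 window lay, and the long noncoding RNA gene Gm40451, 4084 bp from the Tead1 window near its end. Without the 3 windows nearest to another gene, 10 windows at 9 genes remained, of which 4 held 7 sites.

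Promoter entries of RefSeq (GRCm38.p6), with 250 bases before and 50 after each start, were searched for the Plagl1 motif and for GGAATG, the core of the motif that Tead factors bind, on both strands. Entries were found for 7 of the 10 genes, 11 in all, and Tead1, Tead4 and Stk3 were not matched. The sequence GGAATG was present at 4 of the 7 genes, Yap1, Wwtr1, Tead3 and Lats2, against 16.6% of all genes with an entry. A gene counted when any of its entries held the sequence. All 27025 genes had 32851 entries, fewer per gene than the 7 genes. The longer form ACATTCC, whose reverse complement GGAATGT extends that core by 1 base, was present at Yap1 and Tead3, against 4.47% of genes. A match is a string of letters and not a measured binding site. The matches are printed in the gene's orientation, with GGAATG or its reverse complement CATTCC in capitals.
Yap1, chr9:8004722-8004747, minus strand: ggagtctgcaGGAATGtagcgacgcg
Wwtr1, chr3:57576031-57576056, minus strand: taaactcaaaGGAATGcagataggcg
Lats2, chr14:57746104-57746129, minus strand: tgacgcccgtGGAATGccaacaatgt
Tead3, chr17:28350699-28350724, minus strand: tCATTCCgtaCATTCCggccatcccc
Tead3, chr17:28350972-28350997, minus strand: cgacgagcgaGGAATGgggtgcgcgg
Tead3, chr17:28350583-28350608, minus strand: gtaagcccggGGAATGcaactcggag
The Tead3 pair, with 3 bases between the 2 matches, and the Wwtr1 match lay inside the open window of their gene. The matches of Yap1 and Lats2 and 2 further ones of Tead3 lay outside. Because the Wwtr1 window covers the start of the gene, the 150 bases of it upstream of the first start are shown, chr3:57575911-57576060 on the minus strand, with the GGAATG match in capitals.
Wwtr1 window upstream of the start: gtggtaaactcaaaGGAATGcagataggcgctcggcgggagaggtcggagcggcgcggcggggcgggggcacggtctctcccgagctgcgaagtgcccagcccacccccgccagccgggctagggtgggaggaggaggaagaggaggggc
This stretch had a GC content of 71.3% and 14 CpG dinucleotides, and held no match to the Plagl1 motif.

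The Plagl1 motif, scored with the matrix read from the deposited sites and the lowest deposited score as the minimum, was found in an entry of Tead2, Tead3, Lats1 and Stk4. These are 4 of 7 genes, against 42.1% of all genes with an entry. None of these matches lay in a window of its gene, so none is in the deposited list. The highest score was at Tead2, the gene without a window, 191 bp upstream of the start.
Tead2, chr7:45215601-45215610, minus strand: tatGGGGgcc
Its score was 6.78. Lats1 had matches of 6.00 and 5.71 upstream of its start, in addition to the site in its window, Stk4 had one of 5.95 and Tead3 one of 5.63.

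Among the other genes of the pathway, the shares with a window lay above that of all protein-coding genes for upstream regulators and target genes. For co-factors of Tead it was 2 of 4 (50%), against 59.5%, and 1 gene moves so small a list by a large step. These differences were not tested. Of 26 upstream regulators, 26 had a window inside or within 10 kb (100%), against 59.5% of protein-coding genes, and 20 had one within 1 kb of an end (76.9%), against 46.6%. A site was found at 13 of them (50%), against 25.1%. Of these regulators 22 were longer than the median protein-coding gene. Among protein-coding genes longer than that median the shares, in the same order, were 70.4%, 55.6% and 28.6%. The background shares with a site also count genes without a window, which hold no site by this rule, whereas all 26 regulators had a window. Of the 13028 protein-coding genes with a window, 5483 had a site, and of the 7704 longer than the median, 3135 did. Rassf1, which encodes a scaffold of the MST kinases, had 4 windows, with 1 site of score 5.51. Of these windows 2 lay inside the gene or within 1 kb of it. Dchs1 and Fat1, genes of large cadherins, had 3 and 2 windows, and the 3 windows of Dchs1 held 6 sites with a best score of 6.46. For both genes, 2 windows lay inside the gene or within 1 kb of it. Wwc1, which encodes the scaffold KIBRA, had 3 windows and Amot, a YAP-binding angiomotin, had 2, all without a site. Mob1a and Mob1b, co-activators of the LATS kinases, had 3 and 2 windows, with 1 site at Mob1a (score 5.53) and 0 at Mob1b. For each of them, 1 window lay inside the gene or within 1 kb of it. The tumour suppressor gene Nf2 had 1 window 132 bp from an end, with 1 site of score 6.95. Sav1, the scaffold that joins MST to LATS kinases, had 1 window 1195 bp from an end and no site.

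Of 4 co-factor genes of the Vgll family, whose products bind Tead factors, 2 had a window: Vgll4 with 3 windows and 3 sites, and Vgll3 with 1 window and 0 sites. Vgll1 and Vgll2 had 0 windows. Of 16 genes known as targets of YAP, TAZ and Tead factors, 13 had a window (81.2%), against 59.5% of protein-coding genes. A window within 1 kb of an end was found at 11 of them (68.8%), against 46.6%. A site was found at 4 of the 16 (25%), close to the 25.1% of protein-coding genes. Both of these shares count genes without a window. Ccn2, the matrix protein gene often used as a readout of YAP activity, had 1 window 365 bp from an end. Ccn1, its relative, had 1 window 3521 bp from an end, outside the gene. Neither held a site. Arhgef17 had 3 windows with 4 sites, Axl, a receptor tyrosine kinase gene, had 3 windows with 3 sites, and Birc5, the gene of the mitotic protein survivin, had 1 window with 1 site. For Arhgef17 and for Axl, 2 of the windows lay inside the gene or within 1 kb of it. Asap1 had 2 windows, and Ajuba and Amotl2, which are also among the upstream regulators, had 1 each, all without a site. The 3 target genes without a window were Ankrd1, Areg and Dock5, chosen for mention after their values were seen, like Vgll1 and Vgll2.

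**Figure D4:**
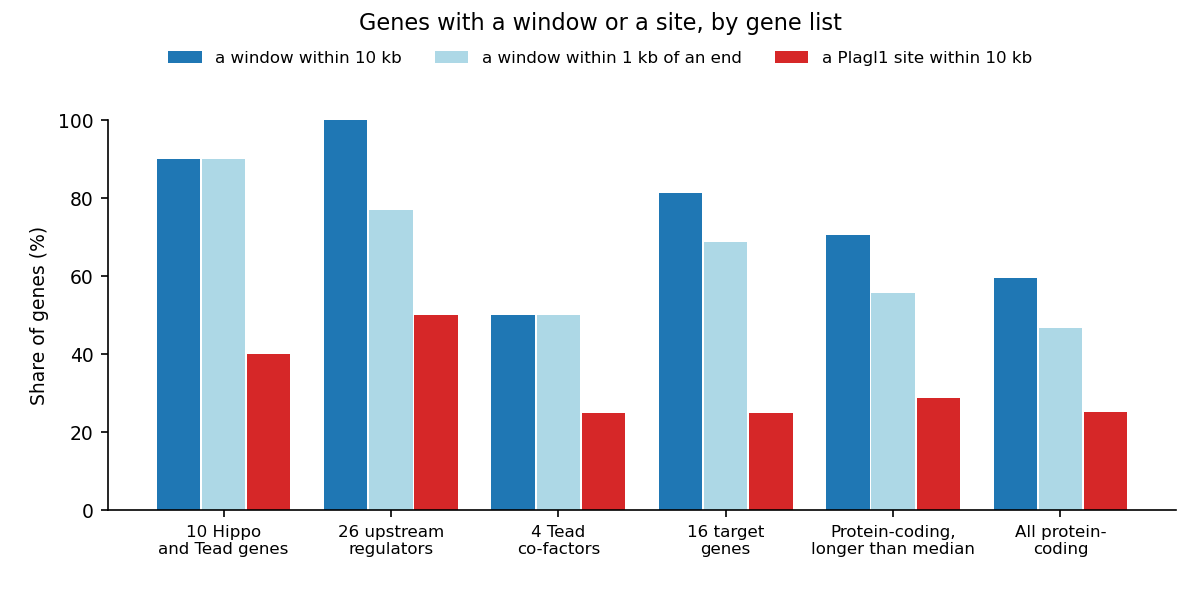
Share of genes in % with at least 1 window inside or within 10 kb (dark blue), with a window within 1 kb of a gene end (light blue) and with a Plagl1 site in a window within 10 kb (red), for the 10 Hippo and Tead genes, the 3 other lists and the protein-coding genes. The 10 genes stand at 90%, 90% and 40%, against 59.5%, 46.6% and 25.1% of all protein-coding genes. The shares with a site also count genes without a window. Shares of lists this small move by large steps with 1 gene.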

How the data were processed

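ATAC-seq was made from 3 libraries, 1 mutant and 2 controls, by the labels. The submitters' processing notes name mm10 and, in no stated role, MACS2 2.1.1, Bowtie2 2.3.5, cutadapt 1.18, FastQC 0.11.8, edgeR, bedtools and Picard. Per the file headers, HOMER's annotatePeaks searched 1 motif in windows around the centres of a union list of peaks. The sources used here do not say how that list was chosen. The deposited score of a site is HOMER's log-odds score, with no log base stated. GC was deposited as a fraction per window, and the deposited CpG value a number of dinucleotides per step between bases. They are given as percent and per 100 steps.

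Windows were assigned by midpoint to RefSeq genes of GRCm38.p6, in Python 3.11.15 with numpy 2.4.6 and pandas 2.3.3, and figures drawn with matplotlib 3.10.9. All 5753 sites of the annotation matched the site list, and all 1783 placements of a site inside a RefSeq promoter entry had the same bases there. The Plagl1 matrix was fitted to site sequences and scores (largest error 6.1e-07), and a base never seen at a position counted as no match. Assignment and motif scan were tested on simulated data. Members and lists were chosen with earlier results of these data known. Of the other pathway genes, those named are up to 6 per list with a window (most windows first, then alphabetical), with Ccn1, Ccn2, Nf2, Sav1, Mob1a and Mob1b. No test was made, since no value belongs to 1 library.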

Additional observations from a re-analysis of the deposited data

How the results depend on the processing

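The number of genes with a window stayed between 8 and 10 of 10 under each distance rule (gene body, 1, 3, 10 and 50 kb), under any overlap and by nearest gene, and was 4 when windows with a site alone were counted. The share of protein-coding genes with a window moved with the distance, from 41.5% for gene bodies to 71.9% within 50 kb. Among those longer than the median it moved from 54.9% to 80.8%. The 13 windows became 8 in gene bodies, 23 within 50 kb, and 5 with a site. The 9 sites became 4 at or above the median score, 2 at or above the upper quartile, and 4 in windows within 1 kb of an end of the 10 genes. The 5 windows with a site became 3, 2 and 3 under these settings, and the 4 genes with a site became 2 at the upper quartile. Within 50 kb, a setting chosen after seeing the data, 17 sites lay in 9 windows of 6 genes, with Tead2 and Lats2 added. By that rule 42.5% of protein-coding genes had a site, and 44.7% of those longer than the median. With all annotated genes as background the shares were 36.9% for windows within 10 kb, 15.1% for sites within 10 kb and 24.6% for windows within 1 kb of an end. In protein-coding genes longer than the median they were 70.4%, 28.6% and 55.6%. The longer TEAD motif lowered 4 genes to 2, and the share of all promoter entries with it, 14.7%, to 3.85%. Each setting changes which windows, sites or genes are counted. No paired analysis was possible because the tables hold no column per library. Leaving out a library was not possible for the same reason. Depth is unknown, so a gene without a window is not shown to be closed.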
